A study of Mus musculus with 19 samples.

Results

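The mitochondrial ribosomal protein genes described here are the genes on the array whose symbol is Mrpl, for the large subunit, or Mrps, for the small subunit, followed by a number and at most 1 letter. Membership was set by symbol, with earlier results of these data known, and 71 of the 22180 genes tested were members. Of these, 43 had an Mrpl symbol and 28 an Mrps symbol. The array carried 78 symbols of this form. The other 7 (Mrpl30, Mrpl33, Mrpl41, Mrpl43, Mrpl44, Mrpl53 and Mrps6) lay only on probe sets that also carried the symbol of another gene and were not members. RNA was measured on 19 Affymetrix mouse arrays, 1 per sample, from mice of mixed C57Bl/6 and 129X1/SvJ background. The 7 tumors were angiosarcomas, malignant tumors of the endothelial lineage, from mice of genotype aP2-Cre/+;DicerFlox/-, in which the aP2 (Fabp4) promoter drives Cre recombinase and 1 Dicer allele is floxed and the other null. The normal tissues were 4 aortas, 4 quadriceps femoris muscles and 4 sternocleidomastoid muscles, all from wild type mice. Tissue and genotype therefore cannot be told apart in any tumor comparison. The labels did not give ages or say which samples came from separate animals, so the p-values measure only the spread between these samples.

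The mitochondrial ribosome is built from RNAs encoded in mitochondrial DNA and proteins encoded in the nucleus, made in the cytosol and imported. It makes the few proteins encoded by mitochondrial DNA, which are core subunits of the respiratory chain and of ATP synthase. Tissues with many mitochondria, such as heart, brown fat and oxidative muscle, hold much of it. NRF1, ETS factors of the GABP type and YY1 are known to bind near the start sites of many nuclear genes for mitochondrial proteins.

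The labelled tissues carried their markers. The mean log2 intensity of 14 endothelial markers was 9.87 to 10.7 in tumors and 7.84 to 8.67 in all normal samples. That of 11 smooth muscle markers was 9.68 to 10.1 in aortas, and that of 16 skeletal muscle markers was 12.05 to 12.36 in muscles against 5.19 to 9.99 in tumors. The aortas also held signal of other tissues. Their level of 14 heart muscle markers was 8.59 to 9.20, against at most 6.32 in any other sample, and their level of 13 brown adipocyte markers was 10.3 to 10.7, against 5.43 to 9.30 elsewhere. In bulk samples like these, fewer cells of a type and less RNA per cell cannot be told apart.

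Start regions of 7 members are printed here. Mrpl42, Mrpl34 and Mrpl18 are among the 5 largest falls against aorta below and Mrpl51 among the 5 largest against muscle, Mrpl39 exceeded muscle most in the aorta, and Mrpl12 and Mrpl3 show a motif beside a known role in the ribosome. The choice was made with the matches known, and 5 of the 7 hold an ETS, NRF1 or YY1 sequence. Over the same stretch, 22 of all 62 members with a RefSeq entry do. Each line gives the 150 bases 5′ of the start site, on the gene's strand, from RefSeq on GRCm38.p6. Capitals mark a match to CCGGAAG, a core sequence of ETS factors, or to the NRF1 sequence. The latter is the palindrome that NRF1 binds with any base allowed next to its middle, so a match need not be a palindrome.
Mrpl42: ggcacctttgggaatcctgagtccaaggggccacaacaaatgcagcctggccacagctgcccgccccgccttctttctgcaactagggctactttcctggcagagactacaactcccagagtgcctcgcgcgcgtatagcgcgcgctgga
Mrpl34: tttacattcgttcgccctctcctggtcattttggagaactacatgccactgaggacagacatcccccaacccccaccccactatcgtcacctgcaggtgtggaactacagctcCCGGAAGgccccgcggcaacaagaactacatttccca
Mrpl18: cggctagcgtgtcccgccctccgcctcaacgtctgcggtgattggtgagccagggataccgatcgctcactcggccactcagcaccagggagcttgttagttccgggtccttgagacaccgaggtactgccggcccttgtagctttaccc
Mrpl51: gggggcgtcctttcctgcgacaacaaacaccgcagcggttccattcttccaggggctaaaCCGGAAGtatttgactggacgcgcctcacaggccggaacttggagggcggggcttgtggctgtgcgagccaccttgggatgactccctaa
Mrpl12: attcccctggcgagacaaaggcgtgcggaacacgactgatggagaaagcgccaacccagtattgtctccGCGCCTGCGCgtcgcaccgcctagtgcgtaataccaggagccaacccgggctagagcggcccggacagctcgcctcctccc
Mrpl39: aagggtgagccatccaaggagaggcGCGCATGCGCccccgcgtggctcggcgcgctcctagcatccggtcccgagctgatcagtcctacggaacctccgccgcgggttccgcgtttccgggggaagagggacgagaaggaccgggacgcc
Mrpl3: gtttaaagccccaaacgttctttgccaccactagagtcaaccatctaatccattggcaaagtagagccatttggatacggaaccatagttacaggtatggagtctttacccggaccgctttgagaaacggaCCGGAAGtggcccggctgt
The Mrpl42 stretch is chr10:95501950-95502099 on the minus strand and holds neither sequence, nor the long YY1 sequence. That of Mrpl18, chr17:12916092-12916241 on the minus strand, holds none of them either. The Mrpl34 stretch is chr8:71464776-71464925 on the plus strand, with CCGGAAG beginning 37 bases before the start. For Mrpl51, at chr6:125192050-125192199 on the plus strand, the same core begins 90 bases before it. Mrpl3, at chr9:105053118-105053267 on the plus strand, has the core 19 bases before its start. The Mrpl12 stretch, chr11:120484487-120484636 on the plus strand, holds the NRF1 sequence 81 bases upstream. In Mrpl39, chr16:84735245-84735394 on the minus strand, it begins 125 bases upstream.

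Over windows of 250 bases before to 50 after the start, on both strands, 62 of the 71 members had an entry among 17491 coding genes. CCGGAAG was found in 23 members, 37.1% against 12.9% of all coding genes, and in Mrpl18 it lay outside the printed stretch. The NRF1 sequence was found in 11 members, 17.7% against 7.17%. The full palindrome, written out in capitals in the Mrpl39 line, was in 3 (Mrpl9, Mrpl32 and Mrpl39), 4.84% against 1.47%. A long YY1 sequence was found in 5 members, 8.07% against 1.06%, and the shorter GATGGCGG, which lies inside it, also in 5, against 2.62% of coding genes. CACGTG (8.07% against 8.91%) and TATAAA (8.07% against 14.8%) were in 5 members each. In all, 33 of the 62 held an NRF1, ETS or YY1 sequence, and 4 held both an NRF1 and an ETS sequence. Among cytosolic ribosomal protein genes 40.6% held CCGGAAG and 9.38% the NRF1 sequence, and among respiratory chain and ATP synthase genes the share was 24.3% for each. These matches are descriptions of letters, not of bound sites.

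Mitochondrial ribosomal protein genes were lower in angiosarcoma than in either kind of normal tissue. Against aorta, 68 of 71 fell and none had a higher mean (limma on all 22180 genes, Benjamini-Hochberg adjusted p under 0.05), where 17.5% of all genes tested fell and 18.6% rose. The median difference was -0.98 on the log2 scale, against -0.022 over all genes. Tumor and aorta values did not overlap for 62 members, all lower in tumors. Of all genes, 11.5% did not overlap and were lower and 12.2% higher. Against the mean of the muscles, 69 of 71 fell, where 25.7% of all genes fell and 25.3% rose, with a median difference of -1.08 against -0.038. Here 61 members did not overlap and were lower, against 12.7% of all genes lower and 14.6% higher. Against quadriceps alone 66 fell (22.0% of all genes) and against sternocleidomastoid alone 69 (22.6%). The tumor was the group with the lowest mean for all 71 members, and 67 fell in both comparisons, which share the 7 tumor arrays.

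The mean log2 intensity of the 71 members was 7.26, 7.02, 7.23, 7.18, 7.47, 7.02 and 6.97 in tumors 1 to 7. It was 8.05, 8.09, 8.10 and 8.28 in the aortas, 8.20, 8.20, 8.24 and 8.12 in quadriceps, and 8.29, 8.25, 8.33 and 8.30 in sternocleidomastoid. Every tumor lay below every normal sample, and the normal tissues lay close together.

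**Figure D1:**
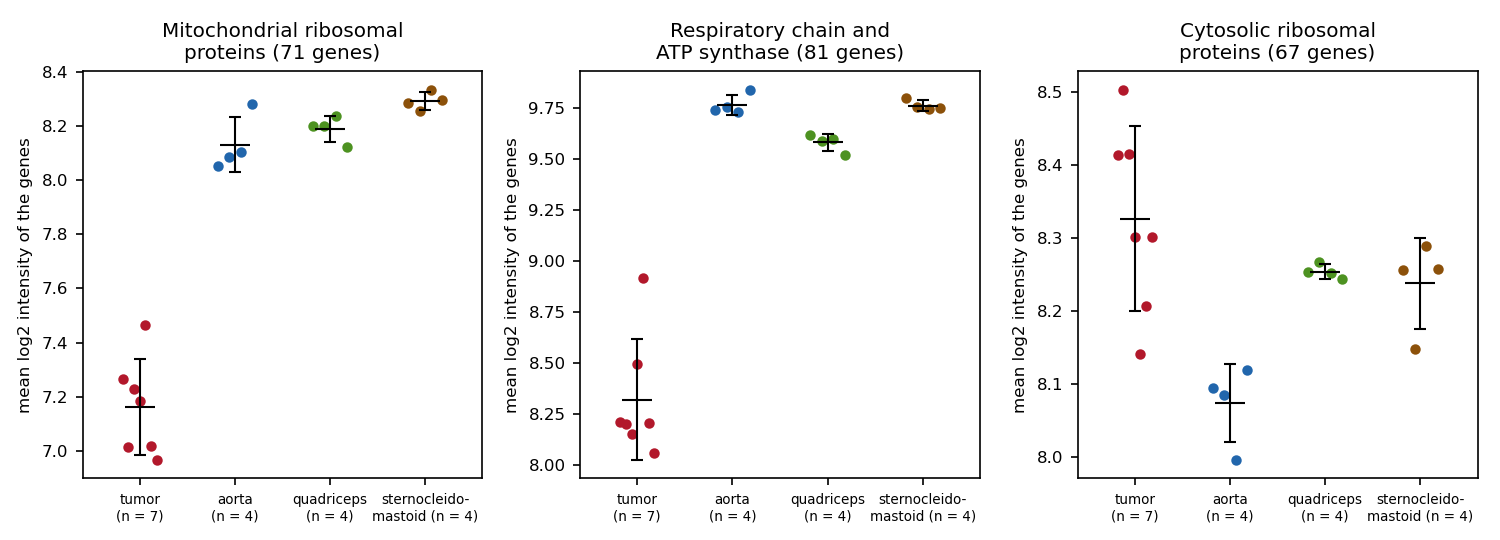
Mean log2 intensity of gene lists in each of the 19 arrays, by tissue; each point is 1 array. The member mean is 6.97 to 7.47 in tumors and 8.05 to 8.33 in normal tissues, while cytosolic ribosomal protein genes are at 8.14 to 8.50 in tumors and 7.996 to 8.29 elsewhere.

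Genes were assigned to a subunit by symbol alone, not by where the protein sits, and both sets were lower. Of the Mrpl genes 42 of 43 fell against aorta (median -1.07) and 42 of 43 against muscle (median -1.22). Of the Mrps genes 26 of 28 fell against aorta (median -0.85) and 27 of 28 against muscle (median -0.99). The genes were also divided by ancestry, into families shared with bacterial ribosomes and the rest, named mitochondria-specific here, which include Mrps36. Of 28 large-subunit genes of bacterial families, 28 fell against aorta and 27 against muscle, and of 15 mitochondria-specific ones 14 and 15. Of 17 small-subunit genes of bacterial families 15 and 16 fell, and of 11 mitochondria-specific ones 11 and 11. The medians against aorta were -1.07, -1.06, -0.81 and -1.08 in that order.

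**Figure D2:**
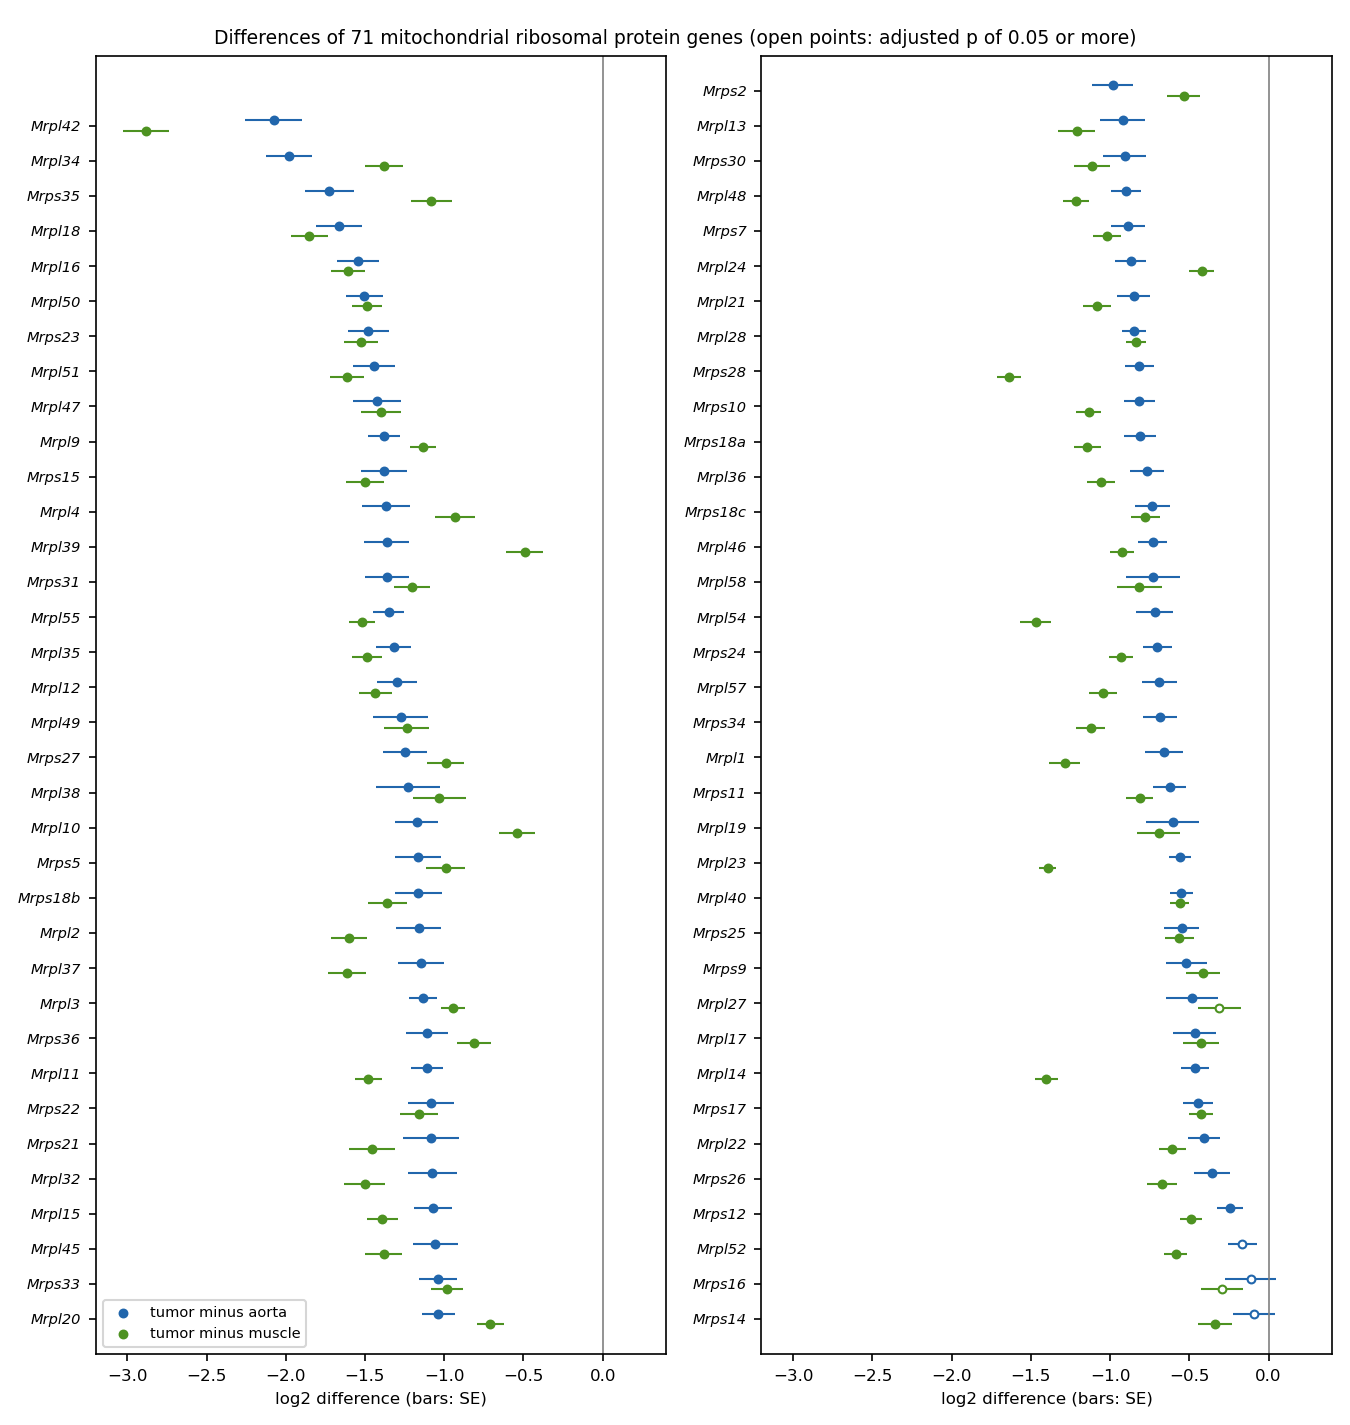
Log2 difference of each of the 71 members, tumor minus aorta and tumor minus muscle, with bars of 1 SE from the limma fit. All lie below 0 in both comparisons, with medians of -0.98 and -1.08.

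Mrpl42, a mitochondria-specific protein of the large subunit, had the largest fall of any member in both comparisons. Its log2 intensity was 7.28 to 8.56 in tumors, with a median of 7.42. It was 9.68, 9.73, 9.54 and 9.85 in aortas, 10.68, 10.49, 10.51 and 10.37 in quadriceps, and 10.58, 10.46, 10.57 and 10.38 in sternocleidomastoid. All 7 tumors were below all normal samples, and the muscles were above the aortas. The difference was -2.08 ± 0.18 (SE; limma adjusted p = 3.82e-08) against aorta, 4.22-fold lower. Against muscle it was -2.88 ± 0.15 (limma adjusted p = 5.29e-12), 7.37-fold lower. The Mrpl42 stretch printed above held no motif match.

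Mrpl34, a small basic protein of a bacterial family in the large subunit, was at 7.77 to 8.85 in tumors, with a median of 8.29. It was at 10.33, 10.30, 10.43 and 10.30 in aortas, 9.76, 9.53, 9.65 and 9.57 in quadriceps, and 9.93, 9.82, 9.84 and 9.81 in sternocleidomastoid. The tumors did not overlap any normal tissue, and here the aortas were the highest group. It fell by 1.98 ± 0.14 (limma adjusted p = 6.35e-09) against aorta and by 1.38 ± 0.12 (limma adjusted p = 8.12e-09) against muscle.

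Other large-subunit genes are described by where their proteins sit. Mrpl18, of the central protuberance, was at 6.39 to 7.35 in tumors (median 6.73). It was at 8.38, 8.55, 8.48 and 8.66 in aortas, 8.61, 8.68, 8.67 and 8.46 in quadriceps, and 8.79, 8.85, 8.92 and 8.66 in sternocleidomastoid. No tumor reached any normal sample, and the 3 normal tissues were within a narrow band. The differences were -1.66 ± 0.14 (limma adjusted p = 3.82e-08) and -1.85 ± 0.12 (limma adjusted p = 1.06e-10). Mrpl16, which sits near the bound transfer RNAs, was 7.51 to 8.52 in tumors and 9.39 to 9.60 in aortas, and it fell by 1.55 ± 0.13 (limma adjusted p = 3.63e-08) and 1.61 ± 0.11 (limma adjusted p = 2.65e-10). Mrpl3, close to the peptidyl transferase centre, fell by 1.13 ± 0.09 (limma adjusted p = 1.49e-08) and 0.94 ± 0.07 (limma adjusted p = 1.89e-09). The mitochondria-specific Mrpl51 fell by 1.44 ± 0.13 (limma adjusted p = 9.26e-08) and 1.61 ± 0.11 (limma adjusted p = 2.82e-10), and Mrpl37 by 1.15 ± 0.15 (limma adjusted p = 4.79e-06) and 1.61 ± 0.12 (limma adjusted p = 1.14e-09).

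The stalk of the large subunit receives the translation factors. Mrpl12, its repeated protein, fell by 1.30 ± 0.13 against aorta (limma adjusted p = 1.73e-07) and by 1.43 ± 0.10 against muscle (limma adjusted p = 6.62e-10). Its tumor values were 6.67 to 7.27, below every normal sample, the lowest of which was 8.13. The dimmer, unused probe set of Mrpl12 gave -0.37 against aorta and -0.67 against muscle. Mrpl10, which anchors the stalk, fell by 1.17 ± 0.14 (limma adjusted p = 1.51e-06) and 0.54 ± 0.11 (limma adjusted p = 0.000428). Mrpl11, at the stalk base, fell by 1.11 ± 0.10 (limma adjusted p = 9.88e-08) and 1.48 ± 0.08 (limma adjusted p = 2.56e-11).

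In the small subunit, Mrps35, a mitochondria-specific protein, was at 5.78 to 7.03 in tumors (median 6.39). It was at 7.86, 8.18, 8.01 and 8.36 in aortas, 7.24, 7.25, 7.21 and 7.28 in quadriceps, and 7.64, 7.78, 7.59 and 7.71 in sternocleidomastoid. Each normal tissue stood apart from the others and all stood above the tumors. The fall was 1.72 ± 0.16 against aorta (3.31-fold lower, limma adjusted p = 7.43e-08) and 1.08 ± 0.13 against muscle (2.12-fold lower, limma adjusted p = 6.39e-07). Mrps28 was at 6.23 to 6.65 in tumors (median 6.43), 7.02, 7.17, 7.32 and 7.51 in aortas, 8.17, 8.28, 8.18 and 8.04 in quadriceps, and 7.96, 7.92, 8.02 and 8.04 in sternocleidomastoid. Its order was tumor, aorta, muscle with no overlap. It fell by 0.82 ± 0.09 (limma adjusted p = 9.19e-07) and 1.64 ± 0.07 (limma adjusted p = 1.21e-12).

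Mrps22, in which inherited defects impair oxidative phosphorylation, fell by 1.08 ± 0.15 (limma adjusted p = 9.41e-06) and 1.16 ± 0.12 (limma adjusted p = 1.2e-07). Mrps12, of the decoding centre, fell by 0.24 ± 0.08 (limma adjusted p = 0.0292) against aorta and by 0.49 ± 0.07 (limma adjusted p = 5.7e-06) against muscle. The aorta result for Mrps12 did not pass without aorta 1, 3 or 4 or without tumor 4 or 7 (differences -0.21 to -0.24, limma adjusted p 0.0523 to 0.100), nor with arrays centred on housekeeping genes (-0.18, limma adjusted p = 0.197). The 3 Mrps18 paralogs, which occupy different places in the ribosome, all fell on the probe sets used. The differences against aorta and muscle were -0.81 and -1.14 for Mrps18a, -1.16 and -1.36 for Mrps18b, and -0.73 and -0.78 for Mrps18c. Dimmer, unused probe sets gave -0.76 and -0.84 for Mrps18b, and only -0.20 and -0.12 for Mrps18c.

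**Figure D3:**
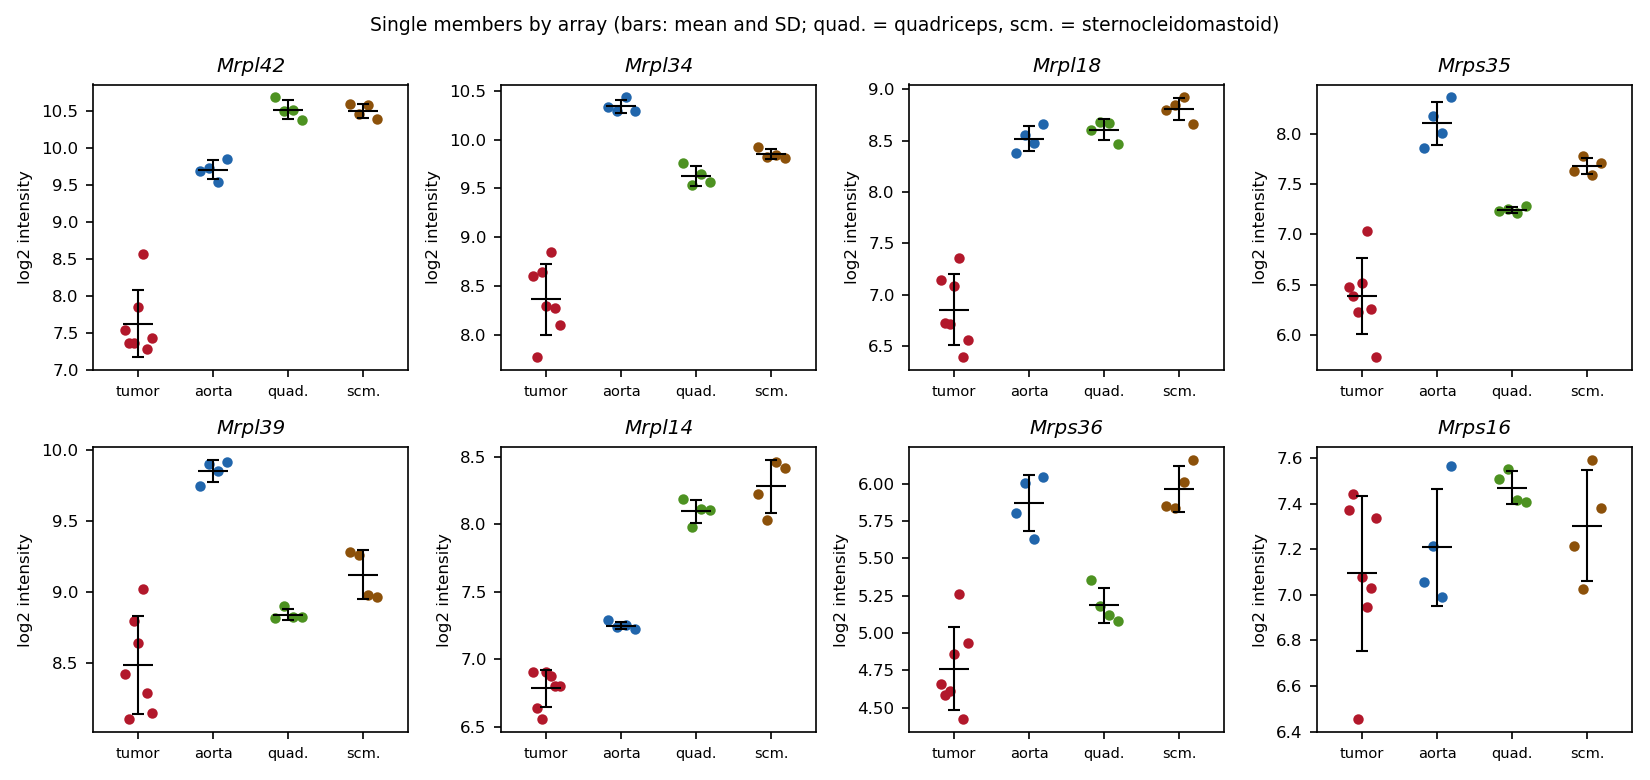
Log2 intensity of 8 members in each of the 19 arrays, by tissue, with 1 point per array. Mrpl42, Mrpl34, Mrpl18 and Mrps35 separate tumors from all normal samples, and Mrpl39, Mrps16 and Mrps36 do not. Mrpl14 is lower in aortas than in muscles, and Mrps36 is higher in sternocleidomastoid than in quadriceps.

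A total of 4 members missed the threshold in 1 or both comparisons. Mrps16, of a bacterial family in the small subunit, was at 6.45 to 7.44 in tumors (median 7.08), 7.06, 7.22, 6.99 and 7.57 in aortas, 7.51, 7.56, 7.41 and 7.41 in quadriceps, and 7.22, 7.02, 7.59 and 7.38 in sternocleidomastoid. The groups overlapped, with differences of -0.11 ± 0.16 (limma adjusted p = 0.636) and -0.29 ± 0.13 (limma adjusted p = 0.0737). Its 2 probe sets disagreed: the dimmer, unused one gave -0.79 against aorta and -1.02 against muscle, and with the mean of both Mrps16 passed in both comparisons (-0.45, limma adjusted p = 0.0117, and -0.65, limma adjusted p = 4.7e-05). The muscle result for Mrps16 also passed without tumor 1 or 2 or sternocleidomastoid 2 (-0.34 to -0.35).

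Mrps14 was below the array medians in every group and differed by -0.09 ± 0.13 from aorta (limma adjusted p = 0.637) and by -0.34 ± 0.11 from muscle (limma adjusted p = 0.0138). Without aorta 2, at 5.48 against 4.68 to 4.78 in the other aortas, the Mrps14 difference from aorta was 0.097 (limma adjusted p = 0.514). Mrpl52, a mitochondria-specific protein, differed by -0.17 ± 0.09 from aorta (limma adjusted p = 0.172) and fell by 0.59 ± 0.08 against muscle (limma adjusted p = 1.6e-06). Mrpl27, near the peptidyl transferase centre and also dim in at least 1 group, fell by 0.48 ± 0.16 against aorta (limma adjusted p = 0.027) and differed by -0.31 ± 0.14 from muscle (limma adjusted p = 0.0649). The aorta call for Mrpl27 was lost without aorta 2 or 4 or tumor 4 (limma adjusted p 0.0501 to 0.125), and the muscle difference passed without tumor 3 or 7 (-0.37 and -0.36).

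The normal tissues were compared with each other in the same fit. Between aorta and muscle, 20 members were lower in aorta, where 15.3% of all genes were lower, and 8 were higher, where 17.0% were higher. The median difference was -0.17, and 43 members did not pass. Aorta and muscle values did not overlap for 12 members lower in aorta (12.6% of all genes) and 8 higher (14.6%). Without aorta 1 or aorta 2 the count of lower members was 12.

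Mrpl14, which forms a bridge to the small subunit, was 7.29, 7.24, 7.25 and 7.22 in aortas. It was 8.19, 7.98, 8.11 and 8.10 in quadriceps and 8.23, 8.03, 8.46 and 8.41 in sternocleidomastoid. Tumors were at 6.56 to 6.91. Aortas were below muscles by 0.94 ± 0.09 (limma adjusted p = 9.22e-08), and tumors fell by 0.46 ± 0.09 against aorta (limma adjusted p = 0.000393) and 1.40 ± 0.07 against muscle (limma adjusted p = 9.1e-12). Mrpl23, at the exit of the peptide tunnel, was lower in aorta than in muscle by 0.83 ± 0.07 (limma adjusted p = 7.49e-09), as were Mrps28 by 0.82 ± 0.09 (limma adjusted p = 5.75e-07), Mrpl42 by 0.80 ± 0.17 (limma adjusted p = 0.00117) and Mrpl54 by 0.75 ± 0.11 (limma adjusted p = 3.32e-05).

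In the other direction, Mrpl39, a mitochondria-specific protein, was 9.74, 9.90, 9.85 and 9.91 in aortas. It was 8.82, 8.90, 8.82 and 8.82 in quadriceps, 9.28, 9.26, 8.98 and 8.97 in sternocleidomastoid and 8.10 to 9.02 in tumors. The aortas stood above all other samples, and the tumors overlapped the muscles. Mrpl39 was higher in aorta than in muscle by 0.87 ± 0.14 (limma adjusted p = 5.72e-05). It fell in tumors by 1.36 ± 0.14 against aorta (limma adjusted p = 4.15e-07) and by 0.49 ± 0.12 against muscle (limma adjusted p = 0.00145), and against quadriceps alone the difference was -0.35 (limma adjusted p = 0.0507). Higher in aorta too were Mrps35 by 0.64 ± 0.15 (limma adjusted p = 0.00259), Mrpl10 by 0.63 ± 0.13 (limma adjusted p = 0.000945), Mrpl34 by 0.60 (limma adjusted p = 0.00244) and Mrps2, which helps begin small-subunit assembly, by 0.45 ± 0.13 (limma adjusted p = 0.00893). The dimmer, unused probe set of Mrpl10 gave an aorta minus muscle difference of -0.04. The heart muscle, brown adipocyte and adipocyte marker levels of the aortas, given above, were also above those of the muscles. Of the members, 20 (28.2%) were lower in aorta and 8 (11.3%) higher, against 15.3% and 17.0% of all genes. What part the tissues behind these markers had in the result was not tested.

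Between the muscles 1 member passed, Mrps36, where 0.234% of all genes were higher in sternocleidomastoid and 0.198% lower. Mrps36, later assigned to the oxoglutarate dehydrogenase complex, was 5.35, 5.18, 5.12 and 5.08 in quadriceps and 5.85, 5.83, 6.01 and 6.16 in sternocleidomastoid. The muscles did not overlap, and tumors (4.42 to 5.26) lay below the aortas (5.80, 6.00, 5.63 and 6.04) but overlapped quadriceps. Mrps36 was 0.78 ± 0.15 higher in sternocleidomastoid (limma adjusted p = 0.0188). The probe set was dim: its means of 5.18 in quadriceps and 4.76 in tumors lay below the array medians of 5.35 to 5.48, and such a signal gives no exact fold. The call did not pass without quadriceps 2, 3 or 4 or sternocleidomastoid 3 or 4 (differences 0.71 to 0.78, limma adjusted p 0.0526 to 0.0837). At an unadjusted p under 0.05, 6 of the 71 members (8.45%) were higher and 1 (1.41%) lower, against 3.73% and 3.33% of all genes. The median difference was 0.091, against -0.0037 over all genes, and 53 members (74.6%) had a higher mean in sternocleidomastoid, against 49.0% of all genes. The brown adipocyte markers were at 8.27 to 9.30 in sternocleidomastoid and 7.09 to 8.18 in quadriceps, and their part was not tested.

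The rest of the mitochondrial gene expression apparatus was described by lists. Of 13 translation factors, 12 fell against aorta (median -0.91) and 12 against muscle (median -0.79). Among them, Tufm, the elongation factor that delivers transfer RNA, fell by 1.70 ± 0.17 against aorta, and Taco1, an activator of Cox1 translation, by 1.49 ± 0.15 and, against muscle, by 1.94 ± 0.12. Mtfmt, which formylates the initiator transfer RNA, was higher against muscle. Of 19 mitochondrial aminoacyl-tRNA enzymes, 16 fell in each comparison (medians -0.73 and -0.57), with Gatc, of the glutamyl-tRNA amidotransferase, at -1.19 ± 0.20 and -2.13 ± 0.16. Of 26 ribosome assembly and RNA modification factors, 21 and 24 fell (medians -0.68 and -0.71). Malsu1, a factor that keeps the subunits apart during assembly, fell by 1.47 ± 0.08 against muscle. Of 14 genes of mitochondrial DNA copying and transcription, 10 and 11 fell (medians -0.57 and -0.84), with Tfb2m, a transcription factor of mitochondrial DNA, at -1.77 ± 0.13 and -1.85 ± 0.11. Polg, the DNA polymerase, was higher against muscle. Of the ribosomal proteins with other names, Dap3 (-0.82 and -0.76) and Gadd45gip1 (-0.67 and -1.25) fell in both comparisons and Ptcd3 in that with aorta (-0.65, limma adjusted p = 0.0154, and -0.36, limma adjusted p = 0.0777).

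Genes of the machinery that the mitochondrial ribosome serves fell too. Of 81 respiratory chain and ATP synthase genes, 71 fell in each comparison, with medians of -1.53 and -1.48, and 17 of 17 genes of the citric acid cycle and other markers of mitochondrial content fell with medians of -1.87 and -1.53. Of 22 import and chaperone genes 20 fell in each (medians -0.95 and -0.75), with Timm9 at -1.69 and -1.36. The respiratory chain list and the content markers share the Sdh genes. In the respiratory chain list, Ndufa4l2 rose in both comparisons, and Cox4i2, Cox6a1 and Cox8a rose against muscle. Differences between the lists' medians were not tested. Cox7a1, a muscle and brown fat form of a cytochrome oxidase subunit, had a difference of -4.50 in both comparisons. The cytosolic ribosome had positive medians. Of its 67 genes, 30 rose and 2 fell against aorta (median 0.24), and 27 rose and 7 fell against muscle (median 0.12). Its median stayed above 0 under each scaling tried, at 0.24 to 0.30 and 0.07 to 0.23. Rpl3l, a muscle form of Rpl3, differed by -5.15 ± 0.17 from muscle and Rpl3 by 1.65 ± 0.11.

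**Figure D4:**
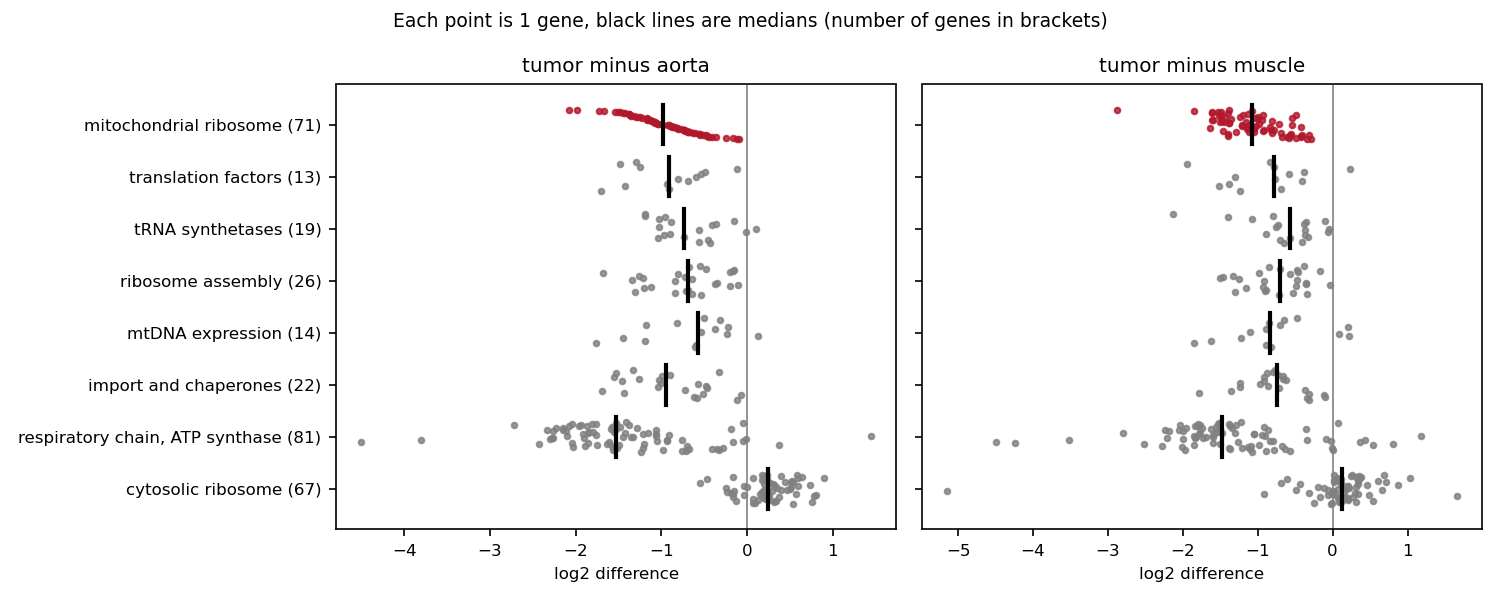
Log2 differences of single genes in each list, tumor minus aorta and tumor minus muscle; each point is a gene and the line its list's median. The member medians are -0.98 and -1.08, those of the respiratory chain list -1.53 and -1.48, and those of the cytosolic ribosome 0.24 and 0.12.

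Of 11 regulators of mitochondrial gene expression, 5 rose and 5 fell against aorta, and 5 rose and 4 fell against muscle. The coactivators Ppargc1a and Ppargc1b and the muscle regulator Perm1 fell, and Pprc1, of the same family as Ppargc1a, rose. Ppargc1a differed by -3.83 ± 0.58 (limma adjusted p = 3.29e-05) and -3.69 ± 0.48 (limma adjusted p = 2.02e-06), Ppargc1b by -2.82 ± 0.24 and -1.64 ± 0.20, and Perm1 by -2.26 ± 0.13 and -4.28 ± 0.11. The nuclear receptor Esrra fell by 0.93 ± 0.09 and 1.02 ± 0.07. Factors whose sequences were searched in the promoters differed among themselves. Nrf1 rose by 0.59 ± 0.10 (limma adjusted p = 0.000131) and 0.58 ± 0.08 (limma adjusted p = 8.15e-06), Gabpb1 by 0.90 and 1.01, and Yy1 by 0.33 and 0.25. Gabpa, the DNA-binding subunit of GABP, fell by 0.31 against aorta (limma adjusted p = 0.0194) and differed by 0.03 from muscle (limma adjusted p = 0.766). Pprc1 rose by 1.08 and 0.77 and Myc by 2.04 ± 0.31 and 1.47 ± 0.26, and Gabpb2 did not pass (0.06 and 0.10). Members with CCGGAAG had a median tumor minus aorta difference of -0.85 (n = 23) and those without it -1.06 (n = 39). With the NRF1 sequence the median was -1.06 (n = 11) and without it -0.98 (n = 51).

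The spread of members was described by the SD of each gene within a group. Their median SD was 0.26 in tumors, 0.16 in aortas, 0.093 in quadriceps and 0.092 in sternocleidomastoid, against 0.21, 0.16, 0.14 and 0.16 over all genes. Tumor 5 was the highest tumor for 43 of the 71 members and above the tumor mean for 64, with a median deviation of 0.25. Tumor 7 was the lowest for 26, tumor 2 for 20 and tumor 6 for 15. The largest SD was that of Mrpl38, of the central protuberance, at 0.52, with tumors at 7.51 to 8.73. Mrpl42 followed at 0.45 and Mrpl58, which releases peptides from stalled ribosomes, at 0.44 (7.51 to 8.79). Mrpl58 fell by 0.73 against aorta (limma adjusted p = 0.00214) and 0.82 against muscle (limma adjusted p = 6.39e-05).

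Markers of other cells varied over the same tumors. Tumor 5 had the highest level of 15 adipocyte markers (tumors 6 and 4 were next at 10.1 and 9.44, and the lowest was at 7.03), the highest of the brown adipocyte markers (8.21) and the lowest of skeletal muscle markers (5.19). The brown adipocyte list holds Cox7a1, Cox8b and Ppargc1a, which other lists above also hold. The level of 17 mitotic genes in tumors 1 to 7 was 8.14, 8.15, 8.48, 8.31, 7.57, 7.35 and 6.98, and tumor 7, the lowest for the members, was also the lowest for these. That of 15 macrophage markers was 8.59 to 9.69 in tumors and 6.34 to 7.49 elsewhere. Without tumors 4 and 5, 66 members fell against aorta, and without tumors 4, 5 and 6 also 66. With tumors 1 to 4 alone, or 5 to 7 alone, the count was 65. The share of all genes that fell was not computed for these subsets. What part the cells behind these markers had in the fall was not tested.

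**Figure D5:**
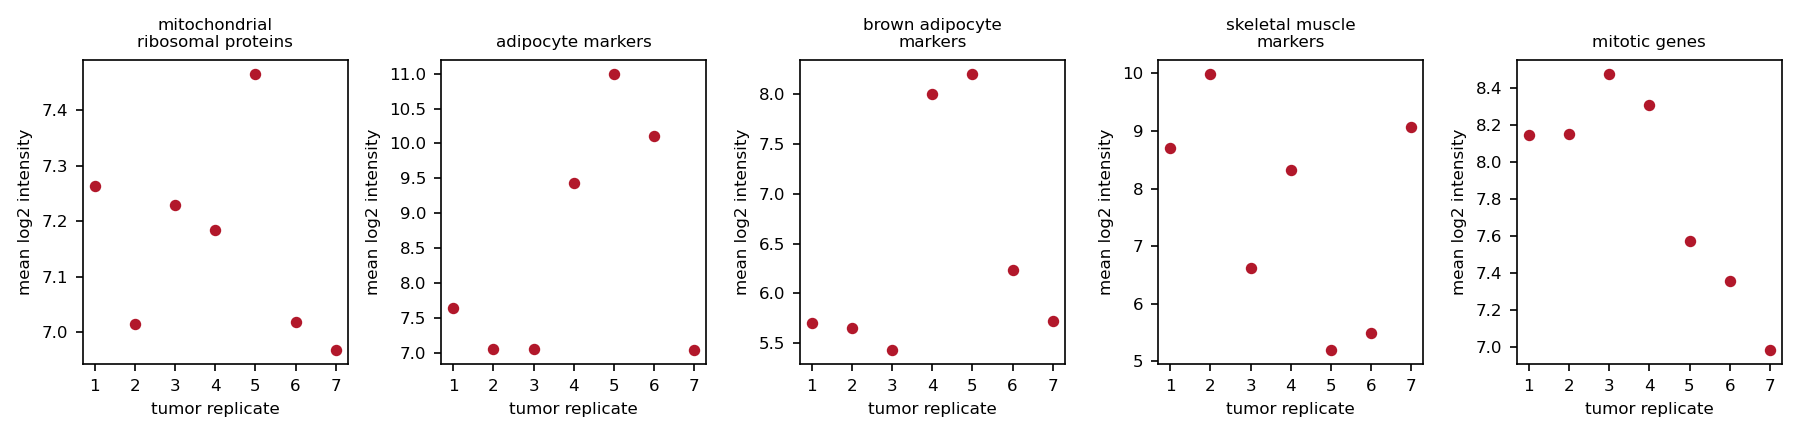
Mean log2 intensity of the members, of adipocyte, brown adipocyte and skeletal muscle markers and of mitotic genes in each of the 7 tumors. Tumor 5 is highest for the members (7.47) and for adipocyte markers, and tumor 7 is lowest for the members (6.97) and for mitotic genes (6.98).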

How the data were processed

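The deposited values, 1 column per array, were read as log2 intensity, from their range and the array medians of 5.35 to 5.48. Partek 6.6 is named in the submitters' processing notes, but the normalization is not given in the sources used here, and no further scaling was applied. Of 41345 probe sets, 23521 carried 1 gene symbol in the platform annotation, 1814 several and 16010 none. For the 1082 genes with more than 1 single-symbol probe set, the brightest over all arrays was used, also for 9 members. Among these members, the unused probe set gave larger falls in tumors for Mrps16 and smaller ones for the others. None of the 171 pairs of arrays was identical (highest Pearson correlation 0.990).

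A model with 1 mean per group was fitted to all 19 arrays and 22180 genes in R 4.3.3, using lmFit and eBayes of limma 3.58.1 with two-sided tests. P-values were adjusted by Benjamini-Hochberg over all genes at a threshold of 0.05. The 4 contrasts share arrays, so their counts are not independent. Fold changes are powers of 2 of the difference in mean log2 intensity. Tables and figures were made with Python 3.11.15, pandas 2.3.3 and matplotlib 3.10.9. Promoter windows came from RefSeq on GRCm38.p6, and letters after the start site are not printed. The number of arrays limits the precision.

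The members and all lists were chosen with earlier results of these data known, and Mrpl58 was placed in its structural class after its values were seen. Named members were the 5 largest increases and decreases in each contrast past the threshold, members with opposite tumor calls (there were none), a fixed set, the 3 with the largest SD over tumors, and the 3 brightest and 3 dimmest. In other lists they were the 2 largest differences, of which some are given, and genes with a call against the rest of their list; Malsu1, Mtfmt and Polg were singled out after their values were seen, as were members that missed the threshold. Alternatives were other scalings, a dim-gene filter, the mean over probe sets, trend and robust options, compared groups only, a threshold of 0.01, subsets of tumors or muscles and leaving out each array. On simulated data for 22180 genes, 50 genes were changed at each size. Many more genes passed in the tumor comparisons of the real data, so the shares recovered need not hold there. In the tumor and aorta comparison, 48% of changes of 0.5 log2 units and 98% of changes of 1 were recovered with 5 false calls. For the tumor and muscle comparison the shares were 54% and 94% with 10 false calls. For aorta and muscle they were 42% and 82% with 6 false calls, and between muscles 28% and 90% with 2.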

Additional observations from a re-analysis of the deposited data

Results flagged for a closer look

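Each of 120 sets of values held 1 named member, or the mean of all members, in 1 tissue. In 7 of them 1 array stood far from the others by Dixon's test at 95%, where chance gives about 1 in 20. Mrps15 was at 9.46 in tumor 5, and the next tumor was at 8.58. Mrpl10 was at 9.30 in aorta 2, with the other aortas from 9.53. Mrps14 was at 5.48 in aorta 2, against at most 4.78 in the others. Mrpl16 was at 9.65 in quadriceps 3, against at most 9.43. Mrpl39 was at 8.90 in quadriceps 2, against at most 8.82. Mrps12 was at 6.66 in quadriceps 3, against at most 6.33. Mrps22 was at 8.03 in sternocleidomastoid 2, against at most 7.89.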

How the results depend on the processing

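No paired analysis was possible because the labels carry no replicate numbers. Lower members numbered 65 to 69 of 71 against aorta and 66 to 71 against muscle over the alternatives run at a threshold of 0.05. At 0.01, Mrpl17, Mrps26, Mrpl27 and Mrps12 also lost the call against aorta (limma adjusted p 0.0107 to 0.0292). The aorta minus muscle count of lower members was 9 at a threshold of 0.01 and 12 to 22 with 1 array left out. Between muscles the count of higher members was 2 with the compared groups only, 0 at 0.01 and 0 to 1 with 1 array left out, and the median difference was 0.15 with arrays centred on housekeeping genes. That centring moved the median of all genes by 0.11 in the tumor and muscle comparison. Of the differences of named members, 2 changed sign, neither past the threshold: Mrps14 against aorta ranged from -0.17 to 0.097 and Mrps16 from -0.19 to 0.0058 with 1 array left out. Over the 69 differences of named members, each under every alternative, the call stood 1678 times. It was lost 30 times, in 5 differences (Mrpl27 and Mrps12 against aorta, Mrpl39 and Mrps14 against muscle, Mrps36 between muscles). It was gained 12 times, in 3 (Mrpl27 against muscle and Mrps16 in both tumor comparisons). The causes were not tested. Leaving out tumors 4, 5 and 6 was chosen after seeing the data.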

Other observations

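The 7 genes measured only on probe sets shared with another symbol had these tumor differences, against aorta and against muscle. The probe set of Mrpl53 and Ccdc142 brightest over the arrays was at -1.45 and -1.74, while a dimmer one with both symbols had tumor and aorta means of 6.40 and 6.17. That of Mrpl30 and Gm6238 was at -1.06 and -0.96, of Mrpl43 and Twnk at -0.61 and -0.99, and of Mrpl41 and Dph7 at -0.58 and -0.83. That of Mrpl44 and Wdfy1 was at -0.56 and -0.67. Mrps6 shared its probe set with Slc5a3, at -0.56 and 0.14. Mrpl33 had a probe set shared with Gm38424 at -0.10 and -0.52 and another shared with Babam2 at -0.10 and 0.26. Which gene such a probe set reads cannot be told apart.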
